A study of Rattus norvegicus with 6 samples.

Results

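The genes described here make triglyceride, coat the lipid droplets that store it, or break it down. They are Gpam, Lpin1, Dgat1 and Dgat2 of synthesis, the droplet proteins Plin2 and Plin3, and the lipases Pnpla2, Lipe, Mgll and Pnlip, and were taken by symbol from the deposited table, where 10 of 37991 genes carry these names. The set was drawn up after Pnlip and Dgat2 had been seen to be higher in differentiated cells, so the values of those genes in this comparison are a description and no test is given for them. The other members were chosen by known function, with earlier results of the same data known. RNA was sequenced from cultures of oligodendrocyte lineage cells of the rat strain SD, in 3 libraries of precursors (control condition, before differentiation) and 3 libraries of cells after differentiation. Cultures were grown in Raff medium, and differentiation was started by changing the growth factors. Replicates are numbered 1, 2 and 5 in both groups. The titles give day 0 and day 3 for replicates 1 and 2 and no day in that form for replicate 5. Nothing in the labels tells whether a replicate is its own culture or animal, and p-values here measure no more than the spread of these libraries, which may be technical.

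Triglyceride is built on glycerol 3-phosphate. Acyltransferases add the first and the second fatty acid, a phosphatase of the lipin family removes the phosphate to give diacylglycerol, and a diacylglycerol acyltransferase adds the last fatty acid. The same phosphatidate and diacylglycerol also feed phospholipid synthesis, on which a cell that makes myelin membrane draws. The product is stored in droplets coated by perilipins, and is broken down stepwise by Pnpla2 (adipose triglyceride lipase), Lipe (hormone-sensitive lipase) and Mgll (monoglyceride lipase). Pnlip encodes pancreatic lipase, a secreted enzyme that the acinar cells of the pancreas release to digest dietary fat in the gut.

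Libraries held 55522101 to 79898629 reads. Levels are given as CPM, the count relative to a library total that was adjusted by edgeR's TMM scaling. Differences are given on the log2 scale as differentiated minus precursor, with a standard error (SE). Levels of different genes are compared only as the deposited TPM, which takes transcript length into account. Oligodendrocyte markers summed to 1431 to 2253 CPM in precursors and 18740 to 22070 CPM in differentiated libraries, and all 10 of them rose by edgeR's quasi-likelihood test. Markers of astrocytes summed to 4345 to 6137 and 7895 to 8188 CPM, and those of microglia or macrophages to 406 to 1066 and 367 to 727 CPM. Those of oligodendrocyte precursors summed to 1281 to 2308 and 1498 to 2139 CPM, but the genes of that list differed in direction. Log2 changes were -0.23 for Pdgfra, -0.39 for Ptprz1 and -0.61 for Vcan. They were 0.05 for Olig1, 0.3025 for Olig2, 0.32 for Cspg4, 1.098 for Sox10 and 1.42 for Gpr17. By the same test 4 of 9 astrocyte markers rose and 0 fell, and 0 of 8 precursor and 0 of 10 macrophage markers passed. Of all tested genes, 5.65% were called higher and 3.21% lower. With the replicate number as a block, 4 precursor markers rose and 2 fell, beside 14.9% and 15.7% of all tested genes. Each library holds the RNA of a whole culture, so fewer cells of a type and less RNA per cell cannot be told apart. The replicate 1 libraries stood apart from the others in both groups, with the highest level of 9 of 10 macrophage markers and of 6 of 9 tested fibroblast and pericyte markers, against 27.6% of all tested genes. They had the lowest level of 7 of 8 oligodendrocyte precursor markers, 5 of 9 astrocyte markers and 5 of 9 neuron markers, against 24.4% of all tested genes.

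Differentiated cells held far more transcript of Pnlip and Dgat2 than precursors, while 7 of the other 8 genes did not pass the test. Mean levels were 10.2-fold higher for Pnlip and 5.74-fold higher for Dgat2. Of the 8 members with a test, 1 rose (Lipe) and 0 fell, beside 5.65% of all tested genes called higher and 3.21% called lower. With the replicate number as a block, 2 rose (Lipe and Mgll) and 1 fell (Plin2), beside 14.9% and 15.7%. The median log2 change over the 8 members other than Pnlip and Dgat2 was 0.12, beside -0.04 over all tested genes.

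**Figure D1:**
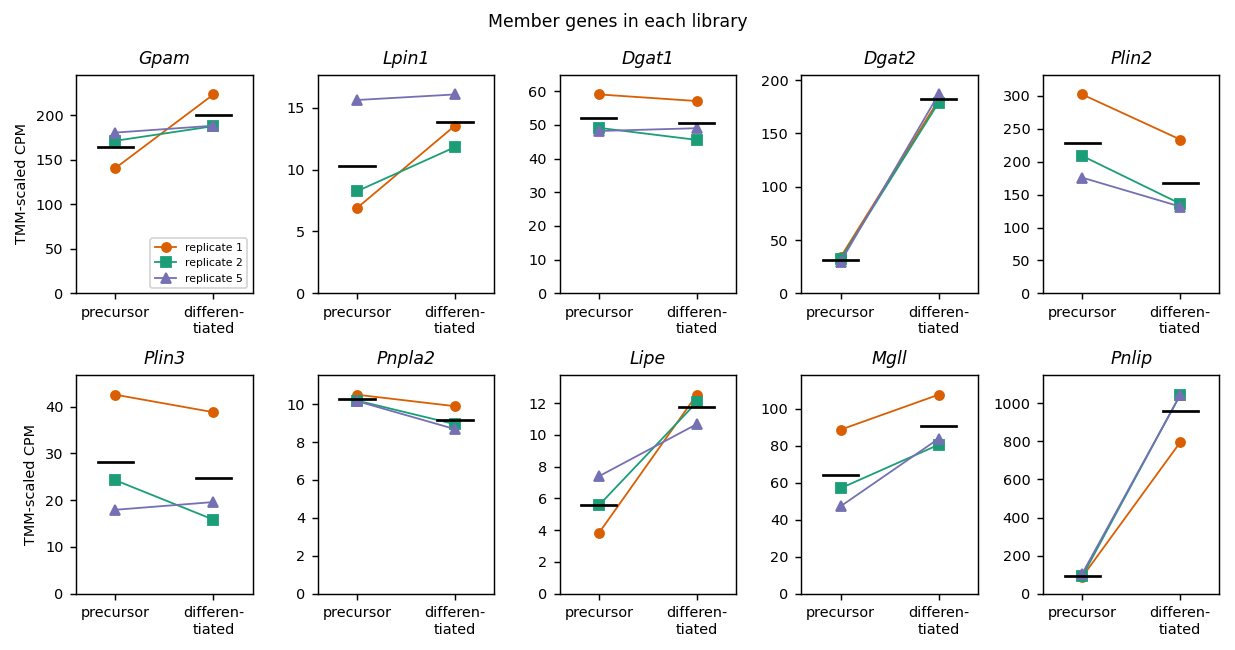
TMM-scaled CPM of the 10 members in each library, with lines that join same-numbered replicates and a black bar for each group mean. Pnlip and Dgat2 lie apart by group in every pair. Plin2 is lower in each of 3 pairs, and the groups of Plin2, Plin3, Dgat1, Lpin1 and Mgll overlap.

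Dgat2 (252900), which adds the last fatty acid, stood at 33.9, 32 and 29.4 CPM in precursors 1, 2 and 5. In differentiated 1, 2 and 5 it was at 181, 179 and 187 CPM. The groups lay far apart, and the libraries within each group were close together. Means were 31.8 ± 2.23 CPM and 182 ± 3.95 CPM (SD, n = 3), a log2 change of 2.52 with SE 0.11, or 5.74-fold.

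Dgat1 (84497) encodes an unrelated enzyme for the same step and did not pass the test. It was at 59.0, 49.1 and 48.2 CPM in precursors and 57.1, 45.5 and 49.0 CPM in differentiated 1, 2 and 5. Its groups overlapped (log2 change -0.04, SE 0.14, edgeR's adjusted p = 0.894). The order of these enzymes per length was therefore not the same in the groups. The ratio of Dgat2 to Dgat1 in TPM was 0.437, 0.497 and 0.465 in precursors 1, 2 and 5, and 2.42, 2.995 and 2.91 in differentiated 1, 2 and 5. Their summed TPM was 46.8 to 55.1 in precursors and 93.0 to 116 in differentiated libraries. These ratios use Dgat2 and are a description.

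The members of the earlier steps of synthesis did not pass the test. Gpam (29653), the mitochondrial acyltransferase of the first step, was at 141, 171 and 180 CPM in precursors and 223, 188 and 188 CPM in differentiated 1, 2 and 5. Its groups did not overlap, but it missed the threshold (log2 change 0.28, SE 0.13, edgeR's adjusted p = 0.26). On the TPM scale its means were 30.9 and 30.8. The median log2 change over all tested genes was also lower there, at -0.17 on log2(TPM + 1) beside -0.04 by edgeR. Lpin1 (313977), a phosphatidate phosphatase, was at 6.90, 8.26 and 15.6 CPM in precursors and 13.6, 11.8 and 16.1 CPM in differentiated 1, 2 and 5. The replicate 5 library was the highest in both groups and the groups overlapped (log2 change 0.43, SE 0.32, edgeR's adjusted p = 0.484).

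Outside the members, 3 of the 18 tested genes of a list of glycerolipid synthesis rose and 0 fell, against 5.65% of all tested genes higher and 3.21% lower. The list has 24 genes, and the 6 not tested had too few reads. Agpat4 (170919), an acyltransferase that can act at the second step, rose from 54.2, 49.5 and 53.6 CPM in precursors to 189, 198 and 184 CPM in differentiated 1, 2 and 5 (log2 change 1.86, SE 0.10, edgeR's adjusted p = 0.000216). It was higher in 3 of 3 same-numbered pairs and had the highest TPM among the 5 Agpat genes after differentiation, at a mean of 93.5. Gpd1 (60666), which makes glycerol 3-phosphate, rose from 5.04 ± 0.924 to 18.5 ± 2.73 CPM (SD, n = 3, log2 change 1.88, edgeR's adjusted p = 0.00235). Mogat2 (681211), a monoacylglycerol acyltransferase gene near Dgat2 in GRCr8, had 0 reads in precursors and 106 reads over the differentiated libraries, which is at least 38.3-fold higher when the precursor group is set at 3 counts in all. Its call (edgeR's adjusted p = 0.022) did not hold when precursor 2, precursor 5, differentiated 2 or differentiated 5 was left out, at up to 0.115. The most abundant genes not called were Tmx1, Gpat4 and Soat1, with edgeR's adjusted p = 0.194, 0.215 and 0.686. Soat1, which esterifies cholesterol, and Tmx1, a thioredoxin-related protein, are counted in the list but are not enzymes of glycerolipid synthesis. Tmx1 fell and Gpat4 rose under the replicate block (log2 change -0.31 and 0.36, edgeR's adjusted p = 0.0131 and 0.0388). With the replicate block 8 genes of the list rose and 5 fell, against 14.9% and 15.7% of all tested genes.

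**Figure D2:**
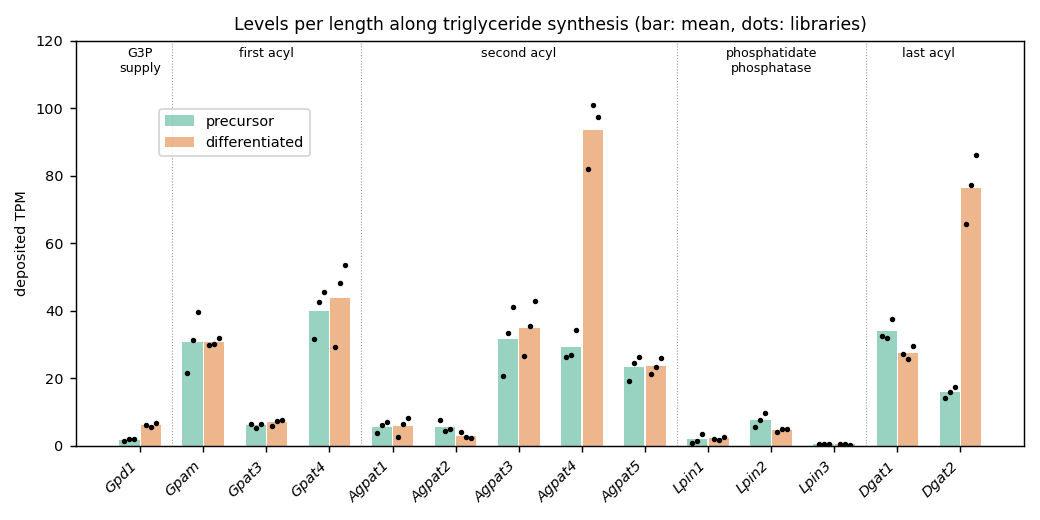
Deposited TPM along the steps of triglyceride synthesis, with bars for the mean of 3 libraries and dots for libraries, precursors in green and differentiated cells in orange. Agpat4 and Dgat2 stand out in differentiated cells at means of 93.5 and 76.4 TPM, while Gpam has means of 30.9 and 30.8 and Dgat1 of 34.0 and 27.5 in precursors and differentiated cells.

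The branch that turns phosphatidate and diacylglycerol into phospholipid or back had 30 tested genes. Of these, 3 rose and 0 fell, beside 5.65% and 3.21% of all tested genes. Pcyt2 (89841), an enzyme of phosphatidylethanolamine synthesis, rose from 68.4 to 171 CPM (log2 change 1.32, SE 0.10, edgeR's adjusted p = 0.000607). Dgka (140866), a diacylglycerol kinase, rose from 23.6 to 76.1 CPM (log2 change 1.69, edgeR's adjusted p = 0.0004). Dgkd, another diacylglycerol kinase, named after its value was seen, had a log2 change of 0.60 (edgeR's adjusted p = 0.0186), which did not hold when precursor 2, precursor 5, differentiated 2 or differentiated 5 was left out, at up to 0.103. Ptdss1, Plpp1 and Plpp3 were the most abundant genes not called, at edgeR's adjusted p = 0.0601, 0.148 and 0.112. All 3 passed under the block (edgeR's adjusted p = 0.00571, 0.00935 and 0.0137), Ptdss1 and Plpp3 higher and Plpp1 lower in 3 of 3 pairs. Under the block 10 rose and 5 fell, beside 14.9% and 15.7% of all tested genes.

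Neither droplet coat gene among the members passed the test. Plin2 (298199), the perilipin of most cells that hold droplets, was at 302, 209 and 176 CPM in precursors and 234, 136 and 132 CPM in differentiated 1, 2 and 5. It was lower in 3 of 3 same-numbered pairs, yet the groups overlapped, since differentiated 1 lay above precursors 2 and 5. The log2 change was -0.45 with SE 0.28 (edgeR's adjusted p = 0.398). With the replicate block it was -0.47 with SE 0.07 (edgeR's adjusted p = 0.00382), and without both replicate 1 libraries -0.51 (edgeR's adjusted p = 0.0261). Plin3 (316130), a perilipin that moves between cytosol and droplet, was at 42.6, 24.3 and 17.95 CPM in precursors and 38.8, 15.8 and 19.6 CPM in differentiated 1, 2 and 5. Its groups overlapped (log2 change -0.19, SE 0.42, edgeR's adjusted p = 0.841), and the value turned to 0.23 without precursor 1 and to 0.05 without differentiated 2.

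Both perilipin genes, and Mgll, were highest in the replicate 1 libraries of each group. So were 5 of the 10 members in all, beside 27.6% of all tested genes. The summed macrophage markers were 1066, 414 and 406 CPM in precursors 1, 2 and 5 and 727, 387 and 367 CPM in differentiated 1, 2 and 5, and all 10 of those markers were detected. Lpl, a secreted lipase whose cells of origin these libraries do not show, was at 1044, 417 and 432 CPM in precursors. It was at 846, 383 and 367 CPM in differentiated 1, 2 and 5. Fabp4, a lipid-binding protein gene of adipocytes and macrophages, was at 1133, 346 and 263 CPM and 525, 165 and 122 CPM (edgeR's adjusted p = 0.417, and 7.57e-05 with the block). Other cell types were highest in replicate 1 as well. Fibroblast and pericyte markers summed to 318, 113.5 and 139 CPM in precursors 1, 2 and 5 and 214, 85.2 and 114 CPM in differentiated 1, 2 and 5. Endothelium markers summed to 50.8, 18.2 and 26.8 CPM and 42.8, 22.9 and 27.1 CPM. The part of any of these cell types in the perilipin, Mgll, Lpl and Fabp4 values was not tested. Of 16 adipocyte markers, Adipoq, Lep, Retn, Ucp1, Aqp7 and Pck1 had 0 reads in all 6 libraries, and the list summed to 274 to 1148 CPM in precursors and 138 to 568 CPM in differentiated libraries, most of it Fabp4. Thrsp, a gene of lipogenic tissue, rose from 2.24, 3.17 and 3.43 CPM to 28.7, 8.34 and 9.21 CPM in differentiated 1, 2 and 5 (log2 change 2.39, edgeR's adjusted p = 0.0311). Its log2 change was 1.58 without differentiated 1, and its call did not hold when precursor 1, precursor 2, precursor 5 or differentiated 5 was left out, at up to 0.118. Pparg, the adipocyte regulator, was at 5.59 and 5.29 CPM (edgeR's adjusted p = 0.928).

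**Figure D3:**
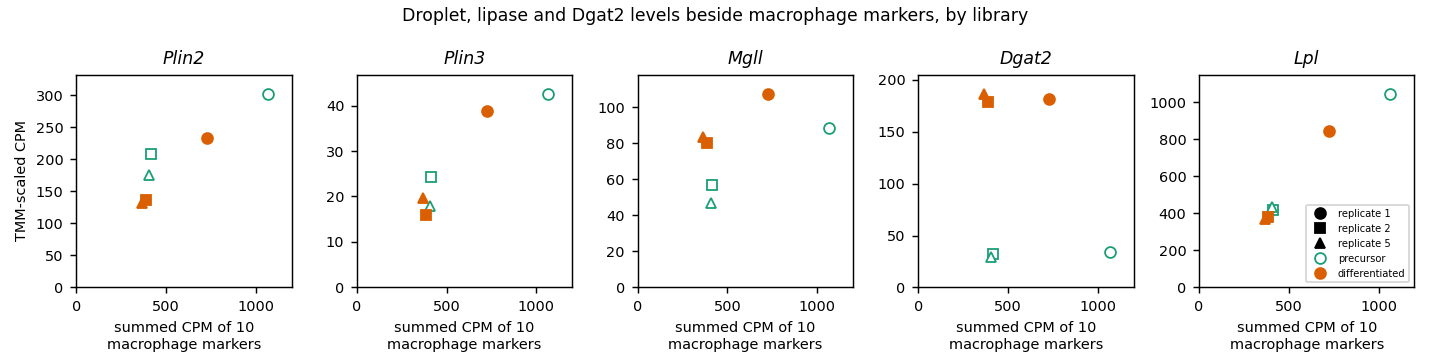
TMM-scaled CPM of Plin2, Plin3, Mgll, Dgat2 and Lpl against the summed CPM of 10 macrophage markers, 1 point for each of 6 libraries, open for precursors and filled for differentiated cells. The replicate 1 libraries lie to the right at 1066 and 727 CPM and hold the highest Plin2, Plin3 and Lpl, while Dgat2 separates by group.

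Of 25 tested genes of droplet coat and assembly outside the members, 2 rose and 0 fell, beside 5.65% and 3.21% of all tested genes. With the replicate block 7 rose and 1 fell, beside 14.9% and 15.7%. Acsl3, an acyl-CoA synthetase found on nascent droplets, rose (log2 change 1.32, edgeR's adjusted p = 0.00063). Fitm2 (311617), a protein of droplet budding, was named after its value was seen, and rose from 25.3, 28.0 and 29.0 CPM to 46.8, 53.8 and 50.8 CPM in differentiated 1, 2 and 5 (log2 change 0.88, SE 0.12, edgeR's adjusted p = 0.00492). Plin1, the adipocyte perilipin, was not tested, at no more than 0.03 CPM. Rab7a, Aup1 and Rab18 were the most abundant genes not called, at edgeR's adjusted p = 0.712, 0.456 and 0.772.

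Among the intracellular lipases, Lipe (25330) was the 1 member of the 8 tested that passed, beside 8.86% of all genes called either way. It was at 3.81, 5.56 and 7.39 CPM in precursors and 12.5, 12.1 and 10.7 CPM in differentiated 1, 2 and 5, so that the groups did not overlap. The log2 change was 1.07 with SE 0.26 (edgeR's adjusted p = 0.047, higher in 3 of 3 pairs). The call was close to the threshold and did not hold when precursor 2, differentiated 1, differentiated 2 or differentiated 5 was left out, at up to 0.161. It also failed with no TMM scaling (edgeR's adjusted p = 0.105) and in TPM (limma's adjusted p = 0.172). The median log2 change over all tested genes was lower on those scales too. It was -0.19 with no TMM scaling, -0.17 on log2(TPM + 1) and -0.26 on log2(TPM + 0.1), beside -0.04 with TMM.

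Pnpla2 (361676), which opens triglyceride breakdown, was at 10.5, 10.2 and 10.2 CPM in precursors and 9.89, 8.94 and 8.68 CPM in differentiated 1, 2 and 5. The groups did not overlap, but the difference missed the threshold (log2 change -0.16, SE 0.15, edgeR's adjusted p = 0.587). Mgll (29254), which cleaves monoglycerides and the endocannabinoid 2-arachidonoylglycerol, was at 88.6, 57.0 and 47.2 CPM in precursors and 108, 80.5 and 83.7 CPM in differentiated 1, 2 and 5. It was higher in 3 of 3 pairs while the groups overlapped (log2 change 0.50, SE 0.24, edgeR's adjusted p = 0.279). With the replicate block it passed (log2 change 0.53, edgeR's adjusted p = 0.013), beside 30.6% of all tested genes called under that fit, and it also passed without precursor 1 (0.81, edgeR's adjusted p = 0.0333). Of the tested members, Gpam and Lipe were higher and Pnpla2 lower with no overlap of the groups, beside 16.5% and 13.8% of all tested genes.

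Of 17 other intracellular lipase genes tested, 4 rose and 0 fell, beside 5.65% and 3.21% of all tested genes. Abhd12 (499913), a lysophospholipid and monoglyceride lipase, rose from 136 ± 3.52 to 300.0 ± 20.2 CPM (SD, n = 3, log2 change 1.14, SE 0.10, edgeR's adjusted p = 0.000907). Pnpla3 rose from 4.01 to 9.39 CPM (edgeR's adjusted p = 0.0323) and Faah, a fatty acid amide hydrolase, from 2.46 to 6.81 CPM (0.025). Ddhd2, a brain triglyceride lipase, named after its value was seen, had a log2 change of 0.61 (edgeR's adjusted p = 0.0291). Abhd12 was the 1 gene of the list called without precursor 2, precursor 5, differentiated 2 or differentiated 5. Over the leave-one-out fits edgeR's adjusted p reached 0.109 for Pnpla3, 0.113 for Faah and 0.144 for Ddhd2. Abhd4, Lipa and Abhd16a were the most abundant genes not called (edgeR's adjusted p = 0.402, 0.669 and 0.372). Abhd4 rose and Lipa fell under the block (log2 change 0.51 and -0.26, edgeR's adjusted p = 0.00584 and 0.0233). Under the block 5 rose and 3 fell, beside 14.9% and 15.7% of all tested genes.

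Pnlip (25702) was by far the most abundant of these transcripts after differentiation. Its level was 87.9, 90.5 and 105 CPM in precursors 1, 2 and 5 and 795, 1045 and 1043 CPM in differentiated 1, 2 and 5. The groups did not overlap, and the lowest differentiated library was replicate 1. The mean was 94.4 ± 9.20 CPM (SD, n = 3) in precursors and 961 ± 144 CPM in differentiated cells, a log2 change of 3.35 with SE 0.16, or 10.2-fold. These levels rest on 5600 to 7554 reads in a precursor library and 57061 to 67435 reads in a differentiated library. Per length, Pnlip stood at rank 1274 of 17476 protein-coding genes with a mean TPM above 0 in precursors, and at rank 116 of 17120 in differentiated cells.

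Most other genes of the digestive output of the pancreas had no or few reads. Of 27 markers of pancreatic acinar cells, 15 had 0 reads in all 6 libraries and 24 stayed under 1 CPM in every library. A count of 0 allows up to 3 reads, or 0.0417 to 0.0546 CPM, by counting error alone. Clps (25680), which encodes the cofactor colipase, and Pnliprp1 (84028) and Pnliprp2 (117554), the related lipases, were among those at 0. So were the trypsinogen genes Prss1 and Prss2, the amylase gene Amy2a3 and the carboxypeptidase gene Cpa1. A single 0 can be a failed estimate in this table, where 115 genes had 0 reads in 1 library and at least 20 in each of the other 5, but these genes were at 0 in every library. The summed level of the list was 20.5 to 26.8 CPM in precursors and 33.4 to 48.9 CPM in differentiated libraries. Most of that sum was Cela1 (24331), an elastase gene, at 12.7 to 20.1 and 23.1 to 39.3 CPM (edgeR's adjusted p = 0.0835, and 0.00102 with the replicate number as a block). Rbpjl, an acinar transcription factor gene, had mean levels of 4.94 and 7.09 CPM in precursors and differentiated cells, and Ctrc, a chymotrypsinogen gene, was at 0.75 to 3.34 and 0.91 to 2.34 CPM. Neither passed the test (edgeR's adjusted p = 0.461 and 0.7755), and the value of Ctrc (log2 change -0.38) turned to 0.33 without precursor 1.

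**Figure D4:**
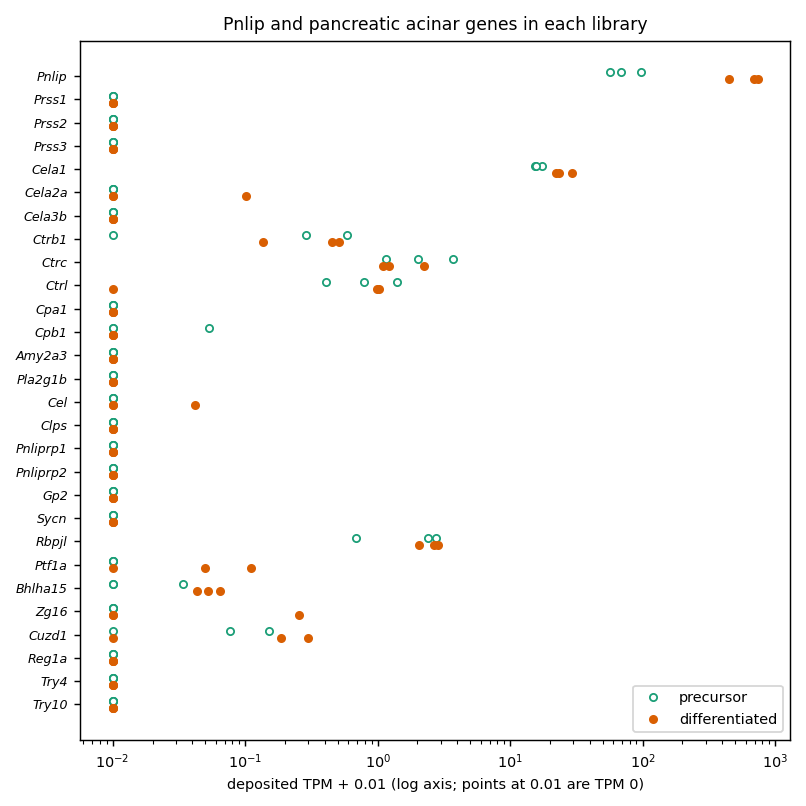
Deposited TPM plus 0.01 on a log axis for Pnlip and 27 markers of pancreatic acinar cells, with open points for the 3 precursor libraries and filled points for the 3 differentiated libraries. Pnlip lies at 57.2 to 96.7 TPM in precursors and 446 to 745 TPM in differentiated cells, while 15 markers lie at 0 in all 6 libraries.

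Genes beside Pnlip in the GRCr8 annotation did not share its level. Pnliprp1 and Pnliprp2 follow it and had no reads, and Ccdc172, the gene before it, had 9 reads over all libraries. The Pnlip promoter is shown because reads of this gene were abundant while Pnliprp1, Pnliprp2 and colipase were at 0. That of Plin2, the member with the highest TPM in precursors, is shown beside it, from the first of 2 start sites in the table. Both are the 250 bases before the start site in RefSeq's GRCr8, read 5′ to 3′ on the gene's strand. Capitals mark matches on either strand to motifs chosen with the sequences in view. These are the TATA box (TATAAA), the GC box (GGGCGG), the E-box (CACGTG) and the GATA motif (AGATAA). The sterol response element (TCACNCCAC, where N is any base) was also searched and had no match in either window.
Pnlip, chr1:267784360-267784609, plus strand: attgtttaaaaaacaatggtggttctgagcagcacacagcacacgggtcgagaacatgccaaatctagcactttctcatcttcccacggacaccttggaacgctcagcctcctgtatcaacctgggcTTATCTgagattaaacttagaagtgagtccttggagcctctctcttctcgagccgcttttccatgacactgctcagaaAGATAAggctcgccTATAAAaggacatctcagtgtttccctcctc
Plin2, chr5:106229019-106229268, minus strand: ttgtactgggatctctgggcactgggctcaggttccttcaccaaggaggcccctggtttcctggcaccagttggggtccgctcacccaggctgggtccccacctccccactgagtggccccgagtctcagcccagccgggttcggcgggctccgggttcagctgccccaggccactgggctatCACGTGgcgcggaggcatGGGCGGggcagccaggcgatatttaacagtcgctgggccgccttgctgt
The Pnlip window holds TATAAA at bases -31 to -26, counted back from the start site, and 2 GATA matches. It is 47.6% G and C, and holds no GC box. The Plin2 window holds an E-box at -67 to -62 and a GC box at -49 to -44, no TATAAA, and is 67.2% G and C. The window of the other Plin2 start site, not printed, is 47.2% G and C and holds no match to any of these motifs. Of 33469 RefSeq windows of this length, 12.9% hold TATAAA, 10.3% AGATAA, 30.5% GGGCGG, 5.59% CACGTG and 0.974% TCACNCCAC. Matches are letters in a window and not shown to be sites.

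Most secreted lipases other than Pnlip, and their cofactors, had no reads or too few to test. Of 24 such genes in the table, 13 had 0 reads in all 6 libraries, among them Lipc, Lipf and Gpihbp1, and 8 were tested. Of the tested genes 0 rose and 1 fell, beside 5.65% and 3.21% of all tested genes. Angptl4 (362850), a secreted inhibitor of lipoprotein lipase, was the 1 gene that fell, from 14.95, 15.7 and 11.2 CPM to 4.82, 3.10 and 3.17 CPM in differentiated 1, 2 and 5 (log2 change -1.92, SE 0.25, edgeR's adjusted p = 0.00462). Lpl, its target, did not pass (log2 change -0.25, SE 0.46, edgeR's adjusted p = 0.809, and 0.0305 with the replicate block), and its value turned to 0.33 without precursor 1. Sel1l and Lmf1, which serve lipase maturation, did not pass either (edgeR's adjusted p = 0.944 and 0.0983), though Lmf1 did under the block (log2 change 0.63, edgeR's adjusted p = 0.00544). With the replicate block 1 gene of this list rose and 3 fell, beside 14.9% and 15.7% of all tested genes.

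**Figure D5:**
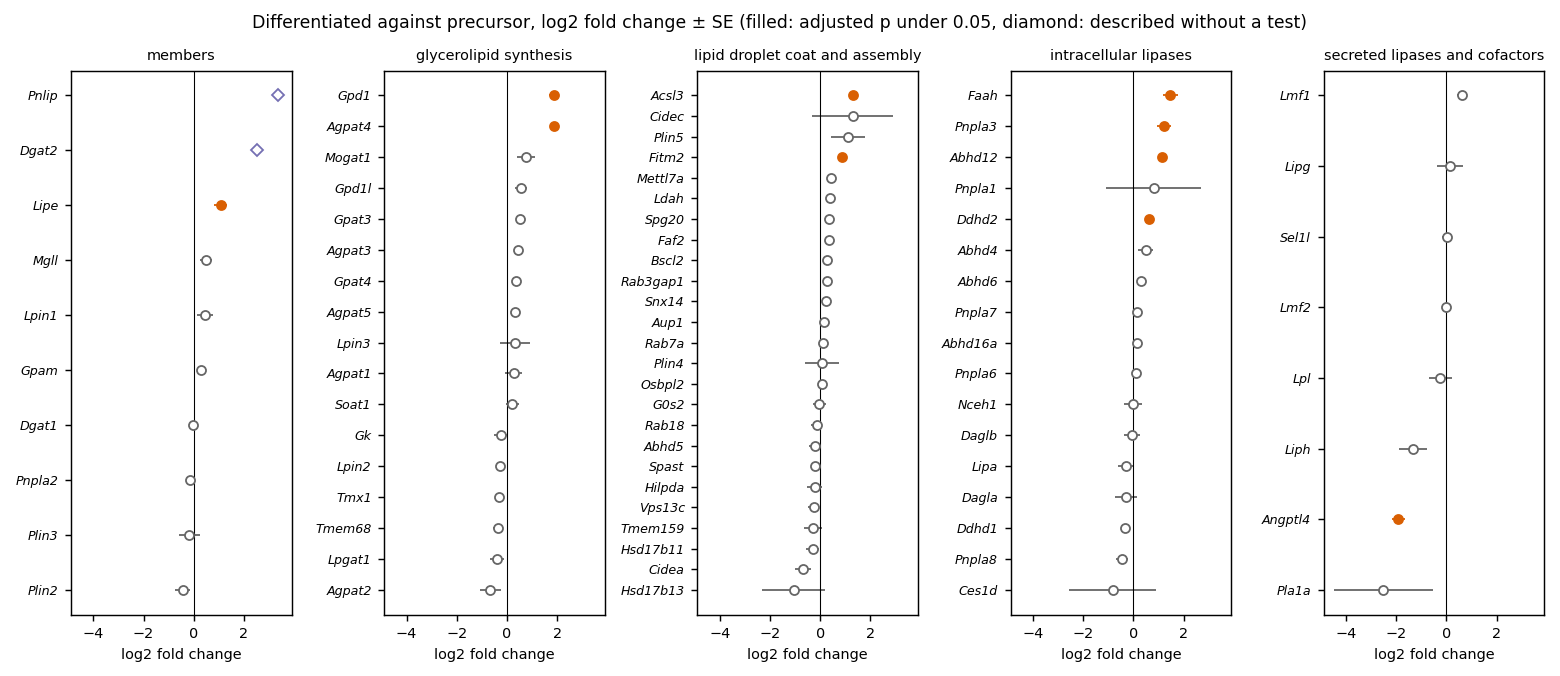
Log2 change of differentiated against precursor cells with its SE for the members and the tested genes of 4 lists, filled where edgeR's adjusted p was under 0.05 and as diamonds for Pnlip and Dgat2, which are described without a test. Mogat2 is left out because its precursor count was 0, and the filled points to the left of 0 are Angptl4 alone.

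Of 22 tested transcription factors of lipid storage, 3 rose and 0 fell, beside 5.65% and 3.21% of all tested genes. With the replicate block 8 rose and 1 fell, beside 14.9% and 15.7%. Srebf1, which drives fatty acid synthesis genes, had a log2 change of 1.15 (edgeR's adjusted p = 0.00107). Tfeb (316214), a regulator of lysosomes and autophagy, rose from 13.5 to 28.0 CPM (log2 change 1.06, edgeR's adjusted p = 0.0422), and Klf15, named after its value was seen, had a log2 change of 0.90 (edgeR's adjusted p = 0.0242). Without precursor 2, precursor 5, differentiated 2 or differentiated 5, Srebf1 was the 1 gene of this list called, and edgeR's adjusted p reached 0.143 for Tfeb and 0.116 for Klf15. Usf1, Nr1h2 and Mlx, the most abundant genes not called, had edgeR's adjusted p = 0.482, 0.129 and 0.142. Nr1h2 and Mlx rose under the block (log2 change 0.30 and 0.47, edgeR's adjusted p = 0.0247 and 0.0249). The median log2 change was 0.32 for the glycerolipid list, 0.05 for the phospholipid branch, 0.11 for droplet genes, 0.16 for intracellular lipases, -0.13 for secreted lipases and 0.22 for transcription factors, beside -0.04 for all tested genes.

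The order of the members by TPM in precursors was Plin2 (140 ± 16.95, SD, n = 3), Pnlip (74.4 ± 20.3), Dgat1 (34.0 ± 3.15), Gpam (30.9 ± 9.01), Mgll (17.5 ± 2.76), Dgat2 (15.9 ± 1.63), Plin3 (15.6 ± 4.44), Pnpla2 (5.32 ± 0.849), Lipe (2.29 ± 1.09) and Lpin1 (2.01 ± 1.37). Dgat1 and Gpam, and likewise Mgll, Dgat2 and Plin3, and also Lipe and Lpin1, differed by less than their spread. After differentiation the order was Pnlip (630 ± 161), Plin2 (85.4 ± 18.2), Dgat2 (76.4 ± 10.2), Gpam (30.8 ± 1.11), Dgat1 (27.5 ± 1.98), Mgll (20.6 ± 1.49), Plin3 (11.5 ± 4.29), Pnpla2 (3.92 ± 0.219), Lipe (3.89 ± 0.263) and Lpin1 (2.24 ± 0.417). Plin2 and Dgat2, and likewise Pnpla2 and Lipe, differed by less than their spread there. The TPM of Pnlip was 2.16 to 3.80 times the summed TPM of Pnpla2, Lipe and Mgll in precursor libraries and 15.6 to 25.8 times in differentiated libraries.

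Profiles most like those of Pnlip and Dgat2 were sought among 17796 other tested genes, by the root mean square difference of log2 CPM over the 6 libraries after each gene was centred on its own mean. For Pnlip the nearest were Tmcc2 (0.139), Gjb1 (0.176), Tmem163 (0.182), Gpr62 (0.199) and Ugt8 (0.201). Tmcc2, the closest, had mean levels of 27.3 and 252 CPM in precursors and differentiated cells. For Dgat2 they were Sh3gl3 (0.0626), Sytl2 (0.0862), Pllp (0.0916), Hs3st1 (0.139) and Tprn (0.141). Sh3gl3 had mean levels of 65.4 and 372 CPM. The difference between Pnlip and Dgat2 themselves was 0.45, with Dgat2 at place 70 for Pnlip and Pnlip at place 173 for Dgat2. These measures rest on 6 libraries in 2 groups and mostly follow the difference between the groups.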

How the data were processed

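The members and gene lists were chosen with earlier results of these data known. Per the submitters' processing notes, reads were handled with StringTie 2.1.3b, HISAT2 2.1.0, Trimmomatic 0.38 and bcl2fastq 2.20.0, in no stated order. The notes name a human build, whereas the table lists rat gene identifiers. Its rat build, annotation and strand setting were not given in the sources used here. Counts were deposited as unnormalized whole numbers. The deposited TPM values, scaled by transcript length and library, were made by the authors. The deposited FPKM values, also the authors', were not used here. Per the labels' protocols, libraries came from a stranded total RNA kit.

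Differentiated and precursor libraries, 3 against 3, were compared on counts with edgeR 4.0.16 (quasi-likelihood, TMM, its low-count filter, robust) in R 4.3.3, tested on simulated data. P-values were adjusted by Benjamini-Hochberg over 17797 genes, and genes under 0.05 were called. SE is the log2 fold change over the square root of F. DESeq2 1.42.0 and limma 3.58.1 on log2(TPM + 1) or log2(TPM + 0.1) were alternatives. All 10 members passed the filter. Depth gives 55.5 reads at 1 CPM in the smallest library.

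Same-numbered libraries deviated together from their group means (correlations across genes of 0.337, 0.15 and 0.182 for numbers 1, 2 and 5). Libraries of unlike number had 0.0872 and 0.0835 between numbers 2 and 5, and -0.227 to -0.186 with number 1. With 3 libraries a group, a number 1 library that stands apart makes numbers 2 and 5 deviate together from the mean. The values for numbers 2 and 5 therefore cannot show by themselves that those libraries are paired. The labels do not state that the numbers pair samples. The main fit therefore had no replicate block, and the block was run as an alternative. Named were all members, list genes called at 2-fold or more, the 3 most abundant not called, the 3 most abundant acinar and adipocyte markers, and the 5 nearest profiles. One acinar marker gene is not reported here and was left out of its list. Gene names and promoters were matched to RefSeq's GRCr8 for 29210 identifiers, 10 members and, for promoters, 7 members.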

Additional observations from a re-analysis of the deposited data

How the results depend on the processing

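Over all tested genes, 1005 (5.65%) were called higher and 571 (3.21%) lower. These counts were 2643 and 2797 (14.9% and 15.7%) with the replicate block and 1529 and 1462 without both replicate 1 libraries. With limma they were 487 and 1000 on log2(TPM + 1), and 509 and 1090 on log2(TPM + 0.1). Lower calls were 1006 with library size alone and 1192 with DESeq2, and leaving out 1 library gave 484 to 947 higher and 148 to 561 lower. With the replicate block, higher and lower calls were 8 and 5 in glycerolipid synthesis, 10 and 5 in the phospholipid branch, 7 and 1 among droplet genes, 5 and 3 among intracellular lipases, 1 and 3 among secreted lipases, and 8 and 1 among transcription factors. Without both replicate 1 libraries they were 6 and 1 in glycerolipid synthesis, 5 and 4 in the phospholipid branch, 4 and 1 among intracellular lipases, 1 and 2 among secreted lipases, and 5 and 1 among transcription factors. With limma on either TPM scale, 1 droplet gene and 1 intracellular lipase were called higher, and 2 phospholipid genes, 2 secreted lipase genes and 1 transcription factor lower. On log2(TPM + 1) 1 transcription factor was called higher, and on log2(TPM + 0.1) 1 glycerolipid gene lower. Library size alone gave 1 lower call each in glycerolipid synthesis and the phospholipid branch, and DESeq2 2 in the phospholipid branch. Leaving out 1 library gave 2 to 4 higher calls in glycerolipid synthesis, 0 to 2 lower calls in the phospholipid branch, 1 to 3 higher calls among intracellular lipases, 1 to 4 among transcription factors, and 1 to 2 lower calls among secreted lipases.

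Among members, Pnlip was at 3.06 on log2(TPM + 1) and 3.08 on log2(TPM + 0.1). Dgat2 was at 2.195 and 2.26, with 2.38 under library size alone. These values are a description, since both genes were chosen for their rise in the same libraries. Lipe missed the threshold at 0.90 with library size alone, 0.62 on log2(TPM + 1) and 0.84 on log2(TPM + 0.1). Mgll passed with the replicate block (0.53) and without both replicate 1 libraries (0.66). Plin2 passed with the replicate block (-0.47), without both replicate 1 libraries (-0.51), and on log2(TPM + 1) and log2(TPM + 0.1) (-0.72 and -0.73). The block changed the call of no other tested member. With 1 library left out, values ran from 0.87 to 1.32 for Lipe, 0.31 to 0.81 for Mgll, -0.13 to 0.063 for Dgat1 and -0.66 to 0.23 for Plin3. The median over all genes moved from -0.04 to -0.19 with library size alone, to -0.17 on log2(TPM + 1) and to -0.26 on log2(TPM + 0.1). On log2(TPM + 1) and log2(TPM + 0.1), uncalled genes that turned negative were Soat1 (-0.038 and -0.039), Rab7a (-0.14 and -0.14), Aup1 (-0.084 and -0.085), Abhd16a (-0.095 and -0.097) and Sel1l (-0.20 and -0.21). Library size alone turned Rab7a (-0.033) and Sel1l (-0.12), and leaving out both replicate 1 libraries turned Sel1l (-0.066). With 1 library left out, uncalled genes that crossed 0 ran from -0.020 to 0.48 for Soat1, -0.0044 to 0.23 for Rab7a, -0.37 to 0.028 for Rab18, -0.58 to 0.10 for Lipa, -0.74 to 0.33 for Lpl, -0.17 to 0.15 for Sel1l, -0.91 to 0.33 for Ctrc and -0.43 to 0.18 for Pparg. Leaving out the low-count filter changed no call of the 50 genes followed. Causes of these shifts were not tested. Loss of a call with 1 library left out also reflects the smaller number of samples. With 3 libraries a group, no group is large enough for a search for single outlying values.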
